A study of Mus musculus with 24 samples.

Results

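The genes described here, in mouse embryos, are 10 genes of the G1 phase of the cell cycle. They are the D-type cyclins Ccnd1, Ccnd2 and Ccnd3, the E-type cyclins Ccne1 and Ccne2, and the kinases Cdk4 and Cdk6. The CDK inhibitors Cdkn1b and Cdkn1c and the pocket protein gene Rb1 complete the list. The 10 genes were chosen by name for their role in the pathway, and their symbols were matched to the gene identifiers of the count tables. All 10 were found among 55471 genes, and all 10 passed the filter on low counts at each stage. In the morula fit 4 of them had wild-type libraries under the filter's limit of 0.685 CPM (CPM, the count scaled to a common library size): 1 of 4 wild-type libraries reached it for Rb1, 2 for Ccnd2, 2 for Cdkn1b and 3 for Cdkn1c.

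In G1, D-type cyclins bind CDK4 or CDK6 and phosphorylate the RB protein, which otherwise holds E2F transcription factors back from genes of DNA replication. E-type cyclins with CDK2 then complete that phosphorylation and drive entry into S phase, and inhibitors of the CIP/KIP family, such as p27 (Cdkn1b) and p57 (Cdkn1c), restrain these kinases. Cleaving mouse embryos are known for short gap phases and for replacing transcripts stored in the egg with transcripts of their own genome around the 2-cell stage.

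Polyadenylated RNA was sequenced from B6D2F1 mouse embryos that were wild-type, Ttf1 knockouts (Ttf1 KO) or Zfp622 knockouts (Zfp622 KO), at the late 2-cell stage (L2C) and as morulae, with 4 libraries of 10 pooled embryos in each of the 6 groups. Knockouts were made by injecting Cas9 protein at 100 ng/µL and 3 sgRNAs at 50 ng/µL each into the cytoplasm of zygotes, so the embryos are injected animals rather than a bred line, and a library averages whatever edits its 10 embryos carried. The titles of wild-type samples say NC, an abbreviation left without explanation, and nothing states whether those zygotes were injected. Ages of the embryos are given only as stages. The superovulated B6D2F1 females were 3 to 4 weeks old, their mates were B6D2F1 too, and injected zygotes were cultured in KSOM medium. Strain labels count upward from B6D2F1 and genotype labels upward from Zfp622, so the titles were used for the groups.

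Total counts ran from 10538723 to 17807596 per library. Ttf1, a transcription termination factor of ribosomal RNA genes, was lower by 1.45 (SE 0.11) on the log2 scale in its knockout at L2C and by 0.76 (SE 0.10) in morulae, and Zfp622, a zinc finger protein of ribosome assembly, was lower by 1.42 (SE 0.16) and 1.78 (SE 0.28) in its own; all 4 passed edgeR's quasi-likelihood test, with a largest adjusted p of 0.00243. File headers place all Ttf1 KO libraries on lane 1 and all others on lane 2, so within a stage lane and Ttf1 knockout cannot be told apart. In the headers a second index number marks 3 wild-type libraries, L2C library 4 with morula libraries 3 and 4, and results that rest on these are given with and without them. Summed markers of the late 2-cell stage (8 genes) were at 1538 ± 279 CPM in wild-type L2C and 49.0 ± 15.8 in wild-type morulae, and markers of morula and trophectoderm (8 genes) at 85.6 ± 5.0 and 1309 ± 46 CPM (SD, n = 4), as the stage labels say. Cumulus markers (14 genes) summed to at most 35.4 CPM in any morula library, with 12 of 14 under 1 CPM in each morula group, and sperm markers (8 genes) to at most 2.15. At L2C the cumulus sums were higher, at 56.4 CPM in wild-type, 65.0 in Ttf1 KO and 55.9 in Zfp622 KO embryos. Most of that was Amhr2, at 48.8, 58.5 and 48.2 CPM.

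At the late 2-cell stage Ccne1 transcripts were the most abundant among the 10 genes. Levels are compared between genes per kilobase of exon, as FPKM, which is CPM per kilobase. That length includes bases shared with another gene, where fragments were not assigned. FPKM may therefore be understated for Cdkn1c (30.7% of exon bases shared), Ccnd1 (23.4%), Cdk4 (19.7%) and Ccne2 (17.4%). Wild-type L2C embryos held Ccne1 at 226 ± 9 FPKM, Ccne2 at 18.6 ± 1.2, Rb1 at 16.8 ± 2.2, Cdk4 at 9.50 ± 2.19 and Cdkn1c at 4.63 ± 0.40 (SD, n = 4). Neighbours in that order whose ranges of SD met were Ccne2 with Rb1 and, below them, Ccnd1 at 1.67 ± 0.40 with Ccnd3 at 1.61 ± 0.11. Cdkn1b at 0.432 ± 0.067, Cdk6 at 0.236 ± 0.053 and Ccnd2 at 0.088 ± 0.058 FPKM were the lowest. In wild-type morulae the order per length was Ccne1 at 197 ± 13 FPKM, Cdk4 at 82 ± 7.5, Ccnd3 at 14.9 ± 3.5 and Ccne2 at 12.5 ± 2.7, and the last pair lay within each other's spread. Below them came Ccnd1 at 1.04 ± 0.35 FPKM, Cdkn1c at 0.508 ± 0.298, Cdk6 at 0.299 ± 0.071, Cdkn1b at 0.166 ± 0.044, Rb1 at 0.112 ± 0.050 and Ccnd2 at 0.086 ± 0.056. Each of these met its neighbour within the SD, except Cdk6 with Cdkn1b.

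**Figure D1:**
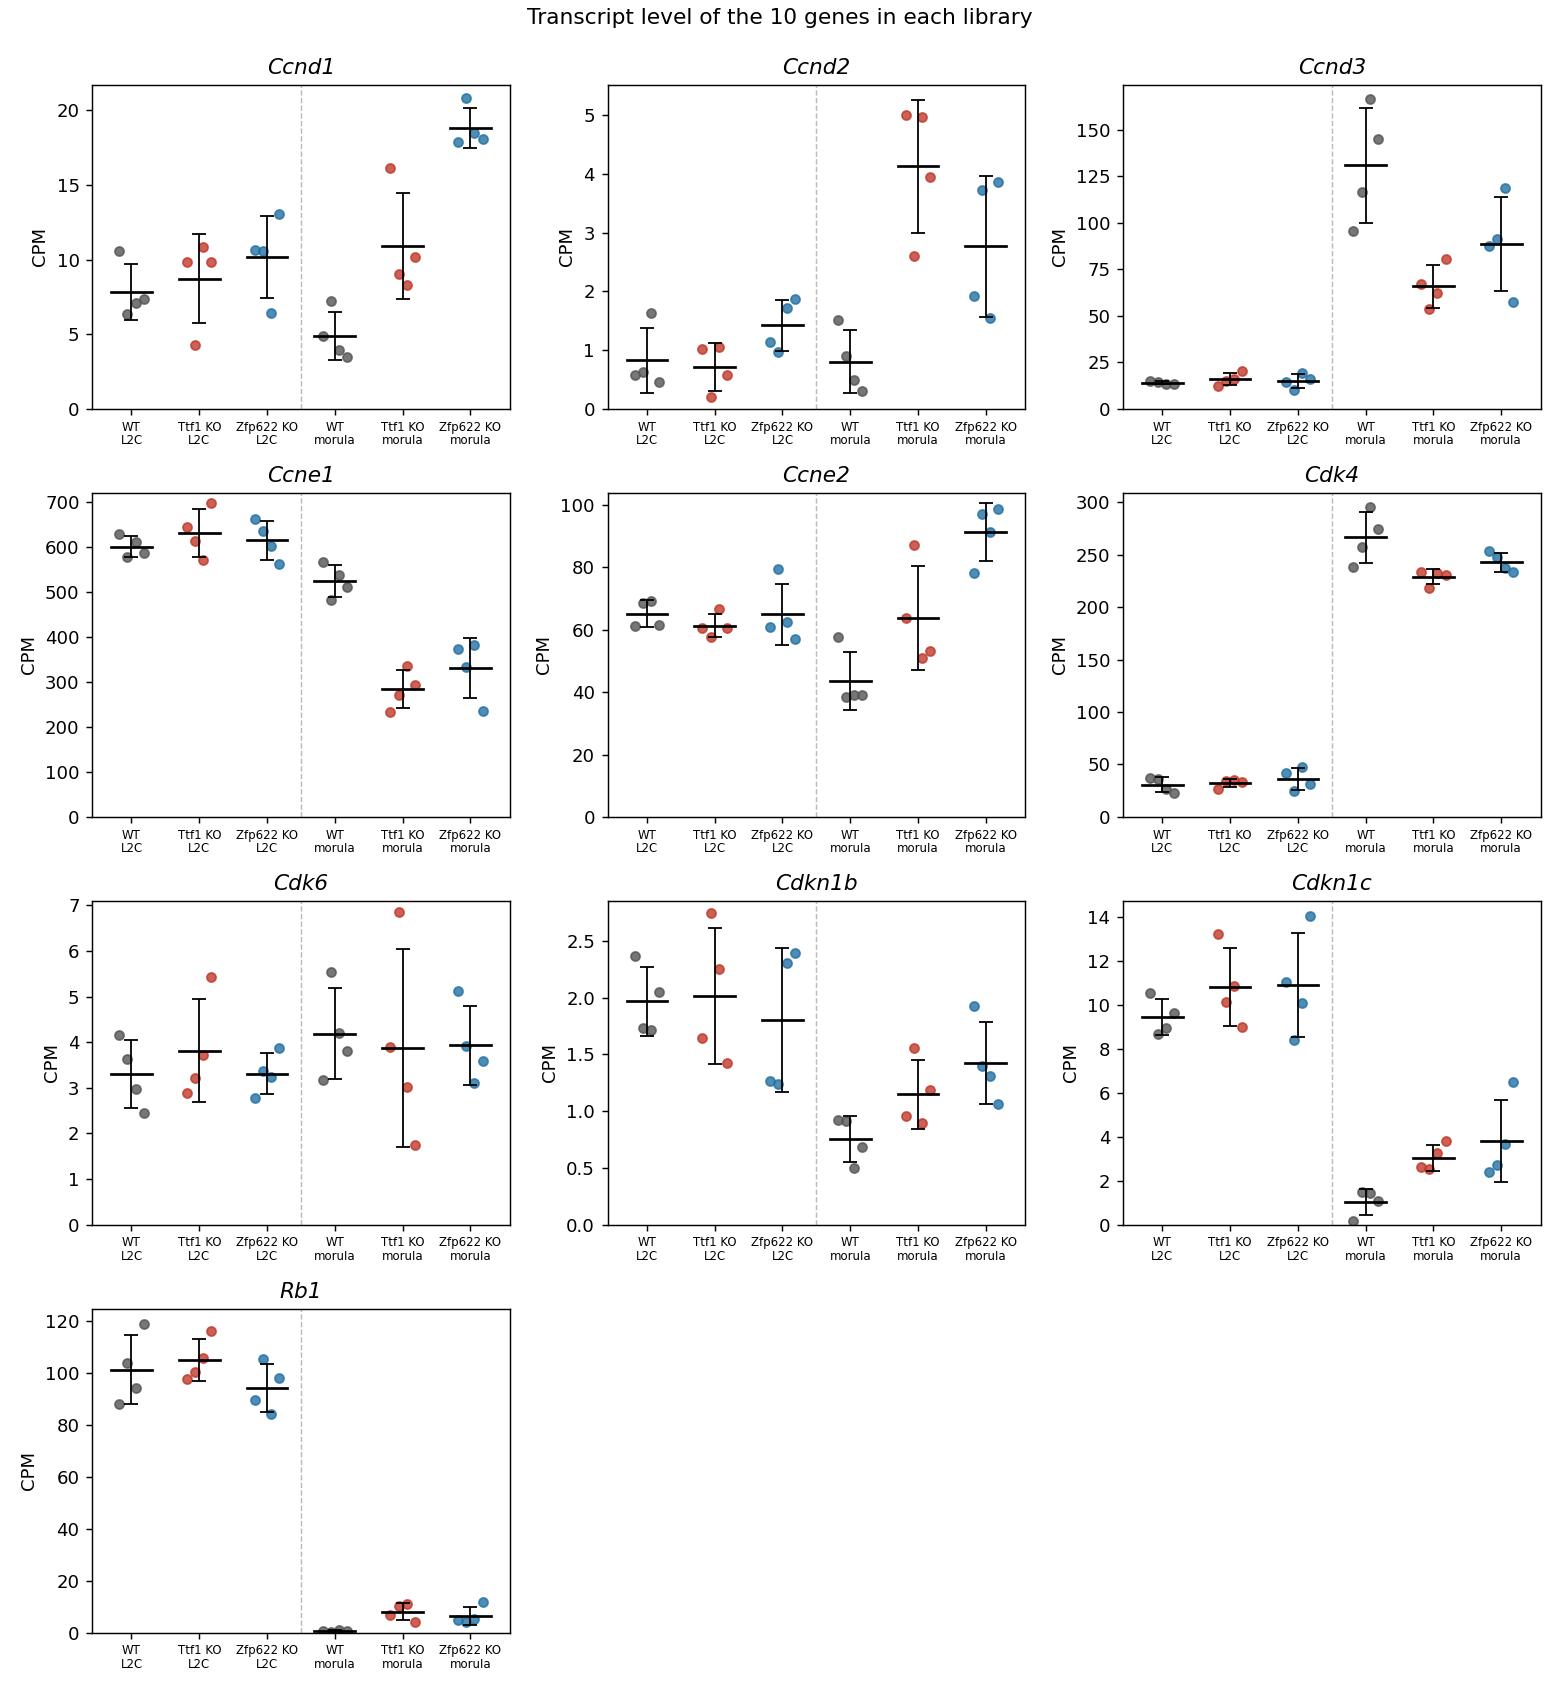
Level of each of the 10 genes in CPM (y axis from 0, own scale per panel) in the 24 libraries, by genotype and stage (x axis); points are libraries, horizontal lines the mean and whiskers 1 SD over 4 libraries. Ccnd3 and Cdk4 are higher and Rb1 and Cdkn1c lower in all morula libraries than in any L2C library, and wild-type and knockout points separate mainly on the morula side.

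Between the wild-type stages Ccnd3 and Cdk4 rose several-fold and Rb1 all but disappeared. Ccnd3 and Cdk4, whose products form a kinase together, passed the test as higher, and Rb1, Cdkn1c, Cdkn1b, Ccne2 and Ccnd1 as lower: 7 of 10 members were called, 2 higher and 5 lower. Over all 18864 genes tested, 84% were called in this comparison, 37.9% higher and 46.1% lower, so the number of members called is near the background, and the sizes carry the description. The median gene changed by -0.30 on the log2 scale. Scaling by DESeq2 size factors or by total counts moves that median to -0.40 or -0.87, and the share of higher calls over all genes from 45.1% to 43.3% or 34.9%. Each stage change below is given with its distance from the median gene.

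Cdk4, the catalytic partner of D-type cyclins, stood at 37.5, 36.4, 26.5 and 23.2 CPM in wild-type L2C libraries 1 to 4 and at 239, 257, 295 and 275 CPM in wild-type morula libraries. The groups lie far apart. Its log2 change was 3.11 (SE 0.16, adjusted p = 3.1e-16), an 8.64-fold rise and 3.41 above the median gene. Ccnd3 went from 15.2, 14.8, 13.3 and 13.4 CPM to 95.8, 117, 166 and 145, a log2 change of 3.21 (SE 0.22, adjusted p = 8.7e-13), 3.51 above the median gene. No other member rose, and Cdk6, the alternative partner of D-type cyclins, had a log2 change of 0.34 (95% interval -0.27 to 0.96), which turned to -0.23 under scaling by total counts, uncalled in both.

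For the members that rose together, the RefSeq windows of 250 bases before the transcript start are shown. These windows differ in the E-box and share the GC box. Such a window was on hand for 5 members (Cdk6, Cdkn1b, Ccne1, Cdk4 and Ccnd3). They are printed 5′ to 3′ on the gene's strand, GRCm38.p6, with the E-box CACGTG and the CCAAT box in capitals.
Cdk4, chr10:127063285-127063534, plus strand: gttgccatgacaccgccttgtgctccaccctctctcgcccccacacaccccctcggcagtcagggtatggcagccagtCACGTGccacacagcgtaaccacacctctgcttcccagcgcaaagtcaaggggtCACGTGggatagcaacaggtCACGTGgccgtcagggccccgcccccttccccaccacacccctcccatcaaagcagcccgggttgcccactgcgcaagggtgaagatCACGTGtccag
Ccnd3, upstream start, chr17:47504801-47505050, plus strand: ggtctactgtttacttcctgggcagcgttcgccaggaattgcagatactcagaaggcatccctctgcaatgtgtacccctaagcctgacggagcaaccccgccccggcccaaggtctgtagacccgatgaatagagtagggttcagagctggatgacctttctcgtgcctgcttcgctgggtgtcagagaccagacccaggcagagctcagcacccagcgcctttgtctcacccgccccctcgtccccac
Ccnd3, downstream start within the gene, chr17:47593217-47593466, plus strand: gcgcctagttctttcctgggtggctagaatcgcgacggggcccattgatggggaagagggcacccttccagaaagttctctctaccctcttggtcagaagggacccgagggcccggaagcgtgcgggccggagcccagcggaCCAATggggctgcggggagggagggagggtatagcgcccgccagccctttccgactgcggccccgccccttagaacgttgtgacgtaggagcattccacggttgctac
The Cdk4 window held the E-box CACGTG, which reads the same on both strands, 4 times, at 172, 118, 98 and 11 bases before the start. Of 32851 promoter windows of that length, 6.02% held at least 1 and 0.0213%, which is 7 windows, held 4 or more. Cdk6 had 1, at 220 bases, and Ccne1, Cdkn1b and both Ccnd3 windows had none of these letters. CCAAT, searched on both strands, occurred once in the downstream Ccnd3 window and in 33.8% of all windows. Letters of an E2F site (TTTCGCGC or TTTGGCGC, both strands) occurred in none of the 6 member windows and in 0.654% of all windows. Transcripts of Myc, a factor known to bind E-boxes, were at 10.1 ± 1.7 CPM in wild-type L2C and 34.5 ± 7.8 in wild-type morulae (SD, n = 4). Their log2 change was 1.77 (SE 0.21, adjusted p = 9.7e-09). The part of Myc, or of any of these motifs, in the Cdk4 and Ccnd3 levels was not tested.

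Rb1, which encodes the pocket protein itself, fell most. Wild-type L2C libraries held 88.17, 103.98, 94.06 and 118.84 CPM, and wild-type morula libraries 0.753, 0.413, 1.07 and 0.458, from 9, 5, 15 and 6 counts. Its level in morulae was 0.664% of that at L2C, a log2 change of -7.19 (SE 0.36, adjusted p = 9.7e-15) that differs by -6.90 from the median gene. Rcbtb2 and Lpar6, which lie on the opposite strand and share 8.11% and 6.78% of the exon bases of Rb1, fell too, by 4.69 and 5.68 on the log2 scale; counting took no account of strand, and fragments that touch exons of 2 genes were not assigned. Summed oocyte markers (7 genes) fell from 993 ± 44 to 16.7 ± 3.0 CPM over the same step (SD, n = 4), and their part in the Rb1 value was not tested. In bulk RNA of this kind, fewer cells with a transcript and less of it per cell cannot be told apart.

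Cdkn1c, the imprinted inhibitor p57, went from 10.5, 8.68, 8.95 and 9.64 CPM in wild-type L2C to 0.167, 1.49, 1.42 and 1.07 in wild-type morulae. These groups do not overlap, and the log2 change was -3.16 (SE 0.33, adjusted p = 5.2e-10). Cdkn1b, which encodes p27, was scarce throughout, at 2.36, 1.74, 1.72 and 2.05 CPM and then 0.921, 0.910, 0.497 and 0.687, and fell by 1.39 on the log2 scale (SE 0.34, adjusted p = 0.00045). Ccne2 fell by 0.58 (SE 0.14, adjusted p = 0.00048) and Ccnd1 by 0.69 (SE 0.27, adjusted p = 0.021); from the median gene these are -0.28 and -0.39. The Ccnd1 call was lost without wild-type L2C library 1 (adjusted p = 0.098), morula library 3 (0.066) or morula library 4 (0.078). Likewise, without the libraries carrying a second index number its log2 change was -0.42 (adjusted p = 0.28).

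Cyclin E1 stayed the most abundant member per length, and its stage call depends on the scale and on the libraries fitted. Ccne1 was at 629, 579, 612 and 587 CPM in wild-type L2C and 566, 483, 537 and 512 in wild-type morulae, a log2 change of -0.20 (SE 0.11, adjusted p = 0.096) that lies 0.10 above the median gene. Under DESeq2 size factors it was -0.30 (adjusted p = 0.019) and under total counts -0.78 (adjusted p = 3.4e-07), both called. It was also called by DESeq2 (-0.30, adjusted p = 0.025) and with the 8 wild-type libraries alone in the fit (-0.24, adjusted p = 0.0030). Ccnd2 did not pass either, with a log2 change of -0.05 (95% interval -1.09 to 0.98) at 4 to 22 counts per library.

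The D-type cyclin pool of wild-type embryos went from about equal shares of Ccnd1 and Ccnd3 to mostly Ccnd3. At L2C, Ccnd1 made up 49.0% ± 5.1 and Ccnd3 48.3% ± 4.7 of the summed FPKM of the D-type cyclins in wild type, and in wild-type morulae 6.83% ± 3.02 and 92.6% ± 3.4 (SD, n = 4). The sum rose from 3.37 ± 0.45 to 16.03 ± 3.3 FPKM. Ccnd1 shares 23.4% of its exon bases with another gene and Ccnd3 4.11%, so the Ccnd1 share may be understated at both stages. Of the E-type cyclins, Ccne1 was 92.4% ± 0.6 and 94.1% ± 0.9 of the sum at the respective stages.

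Other genes of the pathway also moved between stages. Of 22 E2F target genes of DNA replication, all tested, 15 rose and 3 fell, with a median log2 change of 1.04 against -0.30 over all genes. Tyms, which makes thymidylate, rose by 4.11 (SE 0.15), and the ribonucleotide reductase genes Rrm1 and Rrm2 by 2.62 (SE 0.11) and 2.22 (SE 0.09). Cdc45, a part of the replicative helicase, fell by 1.33 (SE 0.08). Among 17 pocket protein, E2F and DP genes 5 rose and 11 fell. With 84% of all genes called, the number called in either list, both directions together, is near the background. By direction, 37.9% of all genes were called higher and 46.1% lower. More of the E2F targets rose and fewer fell than these shares, and more of the pocket protein, E2F and DP genes fell and fewer rose. The genes named here passed edgeR's test at an adjusted p of at most 0.05.

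At the late 2-cell stage neither knockout moved any of the 10 genes past the test. None of 10 was called in the Ttf1 KO against wild type, where 1.54% of 16770 genes were, nor in the Zfp622 KO, where 0.0179% were, nor between the knockouts, where 0.0358% were. With edgeR the number of members at an unadjusted p under 0.05 was also 0 in each, and DESeq2 called 0. Intervals show what this depth could miss: for Ccne1 the 95% interval of the log2 change was -0.08 to 0.22 in the Ttf1 KO and -0.12 to 0.18 in the Zfp622 KO, and for Rb1 -0.16 to 0.26 and -0.32 to 0.11. For Ccnd2, at 3 to 29 counts a library, the intervals were -1.28 to 0.85 and -0.21 to 1.78.

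**Figure D2:**
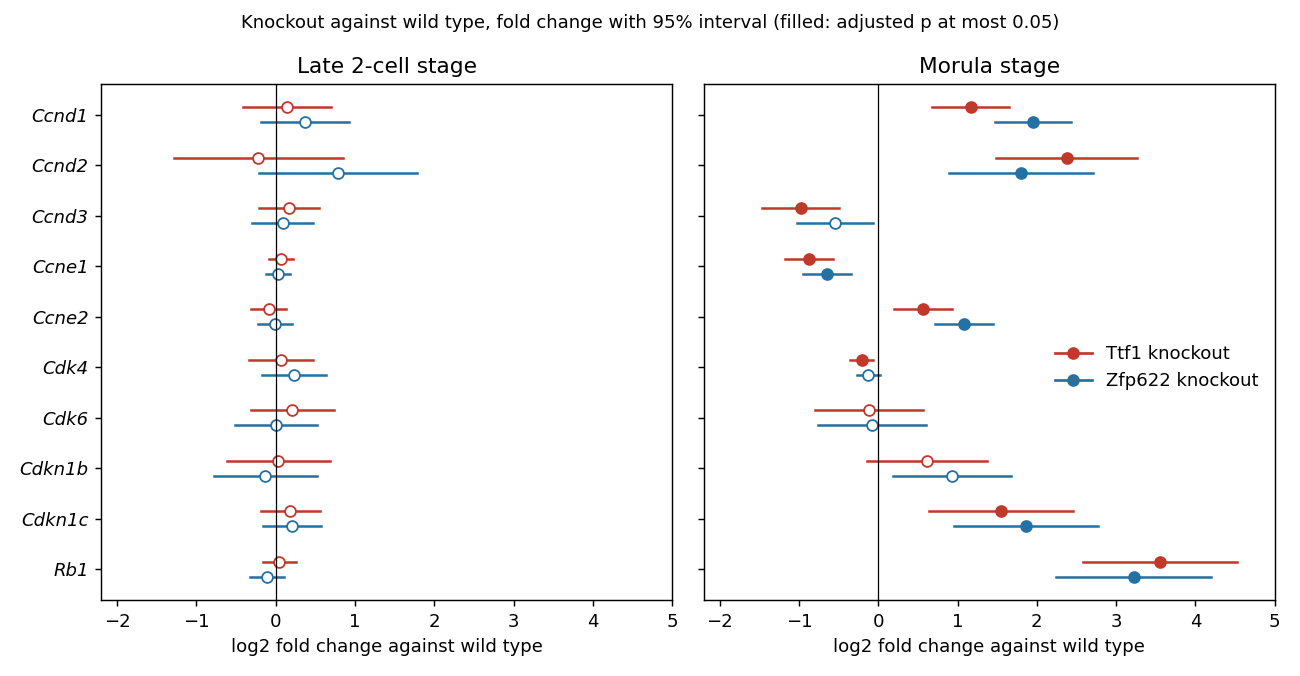
Log2 fold change of each gene in Ttf1 knockout (red) and Zfp622 knockout (blue) embryos against wild type of the same stage (x axis), with its 95% interval, at L2C (left) and as morulae (right); filled points have an adjusted p of at most 0.05. No point is filled at L2C; at the morula stage 8 are filled for Ttf1 and 6 for Zfp622, with Rb1 farthest to the right at 3.56 and 3.22.

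In knockout morulae the G1 genes diverged from wild type in both directions. Ccnd1, Ccnd2, Ccne2, Cdkn1c and Rb1 were higher in both knockouts, Ccne1 was lower in both, and Ccnd3 and Cdk4 were lower in the Ttf1 KO. In the Ttf1 KO 8 of 10 members were called, 5 higher and 3 lower, where 39.2% of 14865 genes were called, 21.3% higher and 17.9% lower. In the Zfp622 KO 6 of 10 were called, 5 higher and 1 lower, where 29.1% of genes were called, 15.6% higher and 13.5% lower. Rb1, Ccnd2, Cdkn1b and Cdkn1c passed the low-count filter only with the help of knockout libraries, so these counts are a description. Both comparisons use the same 4 wild-type libraries, so their likeness is not independent evidence, and their values are given side by side. Without the wild-type libraries carrying a second index number, 5 members were called in each, where 3553 and 2043 of 15860 genes were.

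Rb1 stood farthest from wild type. Against 0.753, 0.413, 1.07 and 0.458 CPM in wild-type morulae, Ttf1 KO morulae held 6.67, 10.4, 11.1 and 4.03 CPM and Zfp622 KO morulae 4.67, 4.01, 5.15 and 11.7. All 8 knockout libraries lie above all 4 wild-type libraries. The log2 change was 3.56 (SE 0.45, adjusted p = 5.1e-05) and 3.22 (SE 0.46, adjusted p = 0.00022), about 11.8-fold and 9.32-fold. Rb1 passed the low-count filter only with the help of knockout libraries, so these values are a description. Relative to L2C of the same genotype, Rb1 remained at 7.66% in Ttf1 KO and 6.78% in Zfp622 KO morulae. Rcbtb2, its overlapping neighbour, was higher as well, by 1.91 (adjusted p = 0.00098) and 1.48 (adjusted p = 0.0098). Its mean in wild-type morulae, 0.658 CPM, lies under the filter's limit of 0.685 CPM. It too passed only with the help of knockout libraries, so these values are a description.

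Of the inhibitors, Cdkn1c was higher in both knockout morulae and Cdkn1b was not called in either. Cdkn1c was at 0.167, 1.49, 1.42 and 1.07 CPM in wild type, 2.62, 2.51, 3.26 and 3.79 in the Ttf1 KO and 2.38, 2.71, 3.68 and 6.48 in the Zfp622 KO, without overlap with wild type. Its log2 change was 1.55 (SE 0.43, adjusted p = 0.0096) and 1.86 (SE 0.43, adjusted p = 0.0042). As Cdkn1c passed the low-count filter only with the help of knockout libraries, these values are a description. Gm44732, which shares 30.7% of the Cdkn1c exon bases from the opposite strand, had no counts in any group. Cdkn1b did not pass, at 0.62 (adjusted p = 0.18) and 0.93 (adjusted p = 0.057), from 7 to 21 counts per library. Markers of earlier stages were higher in the same libraries: summed late 2-cell markers were at 49.0 ± 15.8 CPM (30.6 to 66.8) in wild-type, 148 ± 115 (66.5 to 319) in Ttf1 KO and 124 ± 48 (77.2 to 190) in Zfp622 KO morulae, and summed oocyte markers at 16.7 ± 3.0 (12.2 to 18.6), 28.9 ± 1.3 (27.7 to 30.8) and 27.7 ± 5.1 (22.8 to 34.1), and none of either list was at 0 in any morula group. Their part in the Rb1 and Cdkn1c levels was not tested.

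Of the D-type cyclins, the scarce members Ccnd1 and Ccnd2 were higher in both knockouts, and the abundant Ccnd3 was called lower in the Ttf1 KO, a call lost without the libraries carrying a second index number, and was not called in the Zfp622 KO. Ccnd1, the classical mitogen-responsive cyclin, was at 4.85, 7.19, 3.98 and 3.51 CPM in wild-type morulae. Ttf1 KO morulae held 16.1, 9.01, 8.30 and 10.2 CPM, and Zfp622 KO morulae 17.9, 20.8, 18.5 and 18.1. Every knockout library was above every wild-type library, and the log2 change was 1.16 (SE 0.23, adjusted p = 0.00082) and 1.96 (SE 0.23, adjusted p = 3.5e-05). LTO1, which shares 23.4% of the Ccnd1 exon bases from the opposite strand, was at 48.0 CPM in wild-type, 60.4 in Ttf1 KO and 55.6 in Zfp622 KO morulae (log2 change 0.34, adjusted p = 0.011, and 0.22, adjusted p = 0.096).

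Ccnd2, best known from granulosa cells and lymphocytes, held 1.51, 0.910, 0.497 and 0.305 CPM in wild-type morulae, 5.00, 2.60, 4.97 and 3.95 in Ttf1 KO and 1.92, 3.73, 1.55 and 3.87 in Zfp622 KO morulae. The lowest knockout library, at 1.55 CPM, lies just above the highest wild-type library. Its log2 change was 2.38 (SE 0.42, adjusted p = 0.00038) and 1.80 (SE 0.43, adjusted p = 0.0053), from 4 to 18 counts in wild type. Without the libraries carrying a second index number the values were 1.75 (adjusted p = 0.013) and 1.18 (adjusted p = 0.10). They are a description, because Ccnd2 passed the low-count filter only with the help of knockout libraries. The 14 cumulus and granulosa markers summed to 23.1 ± 3.5 CPM (19.7 to 27.9) in wild-type, 28.9 ± 4.4 (26.1 to 35.4) in Ttf1 KO and 28.6 ± 2.6 (25.3 to 31.1) in Zfp622 KO morulae. Most of that was Amhr2, at 19.95, 26.3 and 25.45 CPM, and Star, at 2.96, 2.24 and 2.05. The other 12 genes were each under 1 CPM, with 8 of the list at 0 in wild-type, 5 in Ttf1 KO and 3 in Zfp622 KO morulae. Highest among these were, in Zfp622 KO morulae, Tnfaip6 at 0.262 CPM (0.0413 in wild type), Ptgs2 at 0.214 (0.0413) and Inhba at 0.139 (0 in wild type), and Fshr, Cyp19a1 and Has2 had at most 1 count over the 4 libraries of a morula group. Blood markers (9 genes) summed to 13.8 ± 2.0 CPM (11.8 to 15.9), 30.9 ± 9.1 (25.7 to 44.5) and 36.1 ± 6.3 (32.1 to 45.5), of which Cd68 made 11.8, 22.4 and 28.95 and Hba-a1 most of the rest. The leukocyte gene Ptprc was at 0 in wild-type and Zfp622 KO morulae and at 1 count over the Ttf1 KO libraries, and 7 of 9 genes were under 1 CPM in each group. The part of either list in the Ccnd2 level was not tested.

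Ccnd3, the main D-type cyclin of the wild-type morula, was at 95.8, 117, 166 and 145 CPM there, at 67.2, 53.5, 62.1 and 80.8 in the Ttf1 KO and at 87.7, 91.2, 119 and 57.3 in the Zfp622 KO. Ttf1 KO libraries lie below all wild-type libraries, and Zfp622 KO libraries overlap them. Bysl, sharing 4.11% of the Ccnd3 exon bases from the opposite strand, was also lower in the Ttf1 KO (-0.32, adjusted p = 0.013). The log2 change of Ccnd3 in the Ttf1 KO was -0.98 (SE 0.22, adjusted p = 0.0048), or -0.70 (adjusted p = 0.057) without the wild-type libraries carrying a second index number. In the Zfp622 KO it was -0.55 (SE 0.22, adjusted p = 0.084). That value was called by DESeq2 (adjusted p = 0.019), without the robust fit (0.044), with all 24 libraries in the fit (0.042), without wild-type morula library 1 (0.036) and without Zfp622 KO morula library 3 (0.024). Without the wild-type libraries carrying a second index number, the log2 change in the Zfp622 KO was -0.27 (adjusted p = 0.51). Summed markers of morula and trophectoderm stood lower in knockout morulae, at 1309 ± 46 CPM (1270 to 1370) in wild-type, 625 ± 75 (568 to 730) in Ttf1 KO and 844 ± 217 (553 to 1065) in Zfp622 KO morulae, with 1 of 8 genes under 1 CPM in each group and none at 0. Nanog was the largest part of each sum, at 761, 233 and 404 CPM. Id2, on the same list, went the other way, at 18.1, 47.2 and 53.7 CPM. The part of these markers in the Ccnd3 level was not tested.

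**Figure D3:**
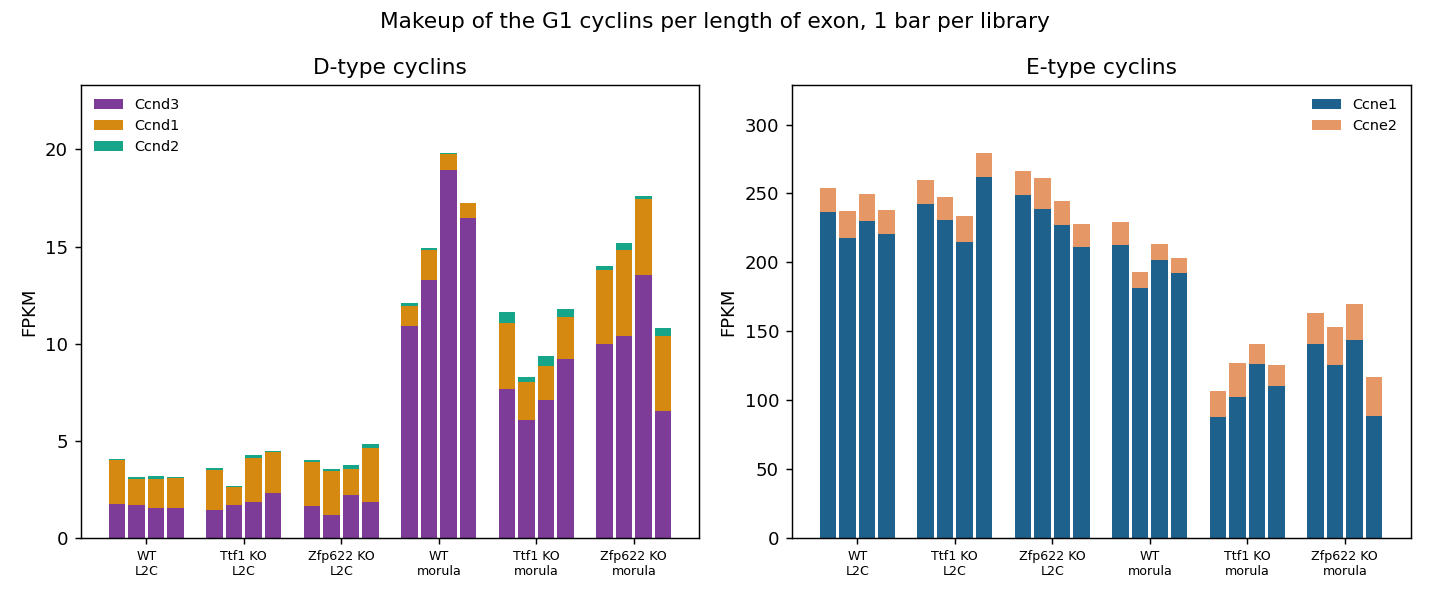
FPKM (y axis from 0) of the D-type cyclins Ccnd3, Ccnd1 and Ccnd2 (left) and of the E-type cyclins Ccne1 and Ccne2 (right), stacked, with 1 bar per library and 4 bars per group (x axis). Ccnd3 makes up 92.6% of the D-type sum in wild-type morulae and 73.3% and 69.3% in Ttf1 and Zfp622 knockout morulae, and the share of Ccne2 in the E-type sum is larger in knockout morulae.

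The makeup of both cyclin families differed between genotypes at the morula stage. Ccnd1 was 6.83% ± 3.02 of the D-type FPKM in wild-type morulae, 22.4% ± 5.2 in Ttf1 KO and 28.5% ± 5.5 in Zfp622 KO morulae, and the ranges of the knockouts (18.4% to 29.5% and 22.3% to 35.6%) lie above that of wild type (4.26% to 10.2%). The D-type sum was 16.03 ± 3.3, 10.3 ± 1.7 and 14.4 ± 2.8 FPKM. Ccne2 was 5.91% ± 0.87 of the E-type FPKM in wild-type, 14.8% ± 4.3 in Ttf1 KO and 17.9% ± 4.6 in Zfp622 KO morulae, and the E-type sum 210 ± 16, 125 ± 14 and 151 ± 24 (SD, n = 4). These shares are descriptions of the values tested gene by gene.

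The E-type cyclins moved in opposite directions. Ccne1, the most abundant member, was at 566, 483, 537 and 512 CPM in wild-type morulae, 234, 272, 335 and 294 in the Ttf1 KO and 375, 333, 382 and 236 in the Zfp622 KO. No knockout library reached the lowest wild-type library. The log2 change was -0.88 (SE 0.14, adjusted p = 0.00037) and -0.65 (SE 0.14, adjusted p = 0.0041). Ccne2 was at 57.6, 38.4, 39.2 and 38.9 CPM in wild type, 63.9, 87.2, 50.9 and 53.3 in the Ttf1 KO and 78.4, 97.1, 91.4 and 98.7 in the Zfp622 KO. Wild-type library 1 overlaps the Ttf1 KO libraries and lies below all Zfp622 KO libraries. Its log2 change was 0.56 (SE 0.17, adjusted p = 0.019) and 1.08 (SE 0.17, adjusted p = 0.00050).

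The Ttf1 KO call of Ccne2 rests on single libraries. It was lost without wild-type morula library 2 (adjusted p = 0.059), 3 (0.065) or 4 (0.061), without Ttf1 KO morula library 2 (log2 change 0.35, adjusted p = 0.060), and without the libraries carrying a second index number (0.40, adjusted p = 0.20). Ints8, on the opposite strand, shares 17.4% of the Ccne2 exon bases and was not called in either knockout morula (log2 change 0.22, adjusted p = 0.088, and -0.02, adjusted p = 0.90).

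The kinase genes differed least. Cdk4 was at 239, 257, 295 and 275 CPM in wild-type morulae, 234, 218, 233 and 231 in the Ttf1 KO and 253, 248, 237 and 233 in the Zfp622 KO. Ttf1 KO libraries lie below all wild-type libraries by a small margin, and Zfp622 KO libraries overlap them. The log2 change was -0.21 (SE 0.07, adjusted p = 0.022) in the Ttf1 KO and -0.12 (95% interval -0.27 to 0.02, adjusted p = 0.19) in the Zfp622 KO. The Ttf1 KO call was lost without wild-type morula library 3 (adjusted p = 0.053), without Ttf1 KO morula library 2 (0.052), with all 24 libraries in the fit (0.26), and without the libraries carrying a second index number (log2 change -0.13, adjusted p = 0.29). Among the alternatives run, the Zfp622 KO value was called in 1, without wild-type morula library 1, at -0.20 (adjusted p = 0.049). Cdk6 stayed between 1.74 and 6.84 CPM in all morula libraries, with log2 changes of -0.11 (95% interval -0.79 to 0.57) and -0.08 (-0.76 to 0.60). Tspan31, on the strand opposite Cdk4 and sharing 19.7% of its exon bases, was not called in either knockout morula.

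Compared with each other, the knockout morulae differed in none of the 10 genes with edgeR at an adjusted p of at most 0.05, where 0.229% of all genes were called. At an unadjusted p under 0.05 there were 2, Ccnd1 and Ccne2, and DESeq2 called 1, Ccnd1 (log2 change -0.80, adjusted p = 0.022). In edgeR the difference of Ttf1 KO from Zfp622 KO was -0.79 (95% interval -1.24 to -0.34, adjusted p = 0.13) for Ccnd1, whose libraries do not overlap, and -0.52 (-0.88 to -0.16, adjusted p = 0.20) for Ccne2. Without Ttf1 KO morula library 1, the Ccnd1 difference was -1.03 (adjusted p = 0.027). For Rb1 it was 0.34 (95% interval -0.44 to 1.11) and for Ccne1 -0.23 (-0.53 to 0.08).

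Whether a knockout effect differed between stages was tested as an interaction over all 24 libraries. In the Ttf1 KO 6 of 10 members were called, 4 higher and 2 lower, where 21.2% of genes were, 12.5% higher and 8.65% lower. They were Rb1 (3.49, SE 0.47), Ccnd2 (2.59, SE 0.68), Cdkn1c (1.34, SE 0.44), Ccne2 (0.64, SE 0.20), Ccne1 (-0.96, SE 0.16) and Ccnd3 (-1.16, SE 0.29), with a largest adjusted p of 0.029. In the Zfp622 KO 5 were called, 4 higher and 1 lower, where 10.7% of genes were, 6.45% higher and 4.21% lower: Rb1 (3.30, SE 0.48), Cdkn1c (1.65, SE 0.44), Ccnd1 (1.58, SE 0.37), Ccne2 (1.07, SE 0.20) and Ccne1 (-0.70, SE 0.16), with a largest adjusted p of 0.015. Ccnd1 in the Ttf1 KO, at 1.02 (SE 0.38), had an adjusted p of 0.052. The median gene moved by 0.11 and 0.06 in these interactions. In this fit too, Ccnd2 passed the low-count filter only with the help of knockout libraries. Without the libraries carrying a second index number 2 calls were left in the Ttf1 KO (Rb1 and Ccne1) and 3 in the Zfp622 KO (Rb1, Ccne1 and Ccne2). Over all genes 2132 and 646 of 19953 were called in that setting.

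The wider pathway was read from 6 lists of genes that act beside the members, 88 of whose genes were tested at the morula stage. In the Ttf1 KO 45 of 88 were called, 14 higher and 31 lower, and in the Zfp622 KO 28 of 88, 9 higher and 19 lower. Over all genes 39.2% (21.3% higher, 17.9% lower) and 29.1% (15.6% higher, 13.5% lower) were called, so the Zfp622 KO number is about the background. Without the wild-type libraries carrying a second index number 30 and 15 of 88 were called, where 3553 and 2043 of 15860 genes were. Between the knockouts edgeR called 0 of 88, with 19 at an unadjusted p under 0.05 and 2 called by DESeq2. Over all genes edgeR called 34 and DESeq2 323 of 14865 there, and no share of all genes at an unadjusted p was computed. At L2C edgeR called 4 of 87 in the Ttf1 KO (Rrm1 higher by 0.51, Mnat1 lower by a log2 change of -0.52, Skp1a -0.44 and Tfdp1 -0.40), all lost without wild-type L2C library 4, and DESeq2 called 10. In that comparison edgeR called 258 and DESeq2 761 of all 16770 genes. In the Zfp622 KO at L2C edgeR called 0 of 87, with 8 at an unadjusted p under 0.05, and DESeq2 called 0. Over all 16770 genes edgeR called 3 and DESeq2 21.

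Of 22 genes of DNA replication that E2F controls, 14 fell and 1 rose in the Ttf1 KO (median -0.28 against 0.04 over all genes), and 7 fell, 1 rose and 14 were not called in the Zfp622 KO (median -0.19 against 0.03). Over all genes 17.9% and 13.5% were called lower. Mcm10, which loads replication factors at origins, fell by 0.93 (SE 0.12) and 0.78 (SE 0.12), and the helicase subunit gene Mcm5 by 0.84 (SE 0.12) and 0.53 (SE 0.12). The gene that rose in the Ttf1 KO was Prim1, a primase subunit, by 0.23. Without the libraries carrying a second index number, 9 and 3 of the 22 fell, where 1684 and 957 of 15860 genes were called lower. E2f1 itself was low in all morulae, at 3.76 ± 0.59 CPM in wild-type, 2.92 ± 0.87 in Ttf1 KO and 3.92 ± 0.91 in Zfp622 KO embryos (SD, n = 4), and was not called in either.

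CDK inhibitors outside the 10 genes were higher where they were called. Of 5 tested, 3 rose and none fell in each knockout, with a median log2 change of 0.95 and 0.90 against 0.04 and 0.03 over all genes, of which 21.3% and 15.6% were called higher. Without the wild-type libraries carrying a second index number 2 rose in each, where 1869 and 1086 of 15860 genes were called higher. Cdkn1a, which encodes p21, a transcriptional target of p53, went from 63.3 ± 12 CPM in wild-type morulae to 390 ± 85 in Ttf1 KO and 364 ± 86 in Zfp622 KO morulae (log2 change 2.63, SE 0.21, adjusted p = 7.9e-06, and 2.53, SE 0.21, adjusted p = 2.6e-05). Cdkn2c, an inhibitor of CDK4 and CDK6, was higher by 0.95 and 0.90. The related Cdkn2b, at a mean of at most 2.53 CPM in any morula group, was higher by 1.81 and 1.53. At so low a level Cdkn2b passed the low-count filter only with the help of knockout libraries. Its values, and its place among the 3 called, are therefore a description. At L2C Cdkn1a was at 60.3 ± 9.7, 66.3 ± 20.6 and 64.9 ± 17.3 CPM in wild-type, Ttf1 KO and Zfp622 KO embryos (SD, n = 4).

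Genes of the ubiquitin ligases that remove G1 cyclins and inhibitors were mostly lower where they were called: of 14 tested, 6 fell and 1 rose in the Ttf1 KO, and 5 fell and 1 rose in the Zfp622 KO. The list's median was -0.34 and -0.18, against 0.04 and 0.03 over all genes, of which 17.9% and 13.5% were called lower. Skp2, the receptor that brings p27 to its ligase, went from 168 ± 12 CPM in wild-type morulae to 97.2 ± 14.5 and 104.6 ± 10.1 (SD, n = 4; log2 change -0.78 and -0.68), and Cul1, the scaffold of the same ligase, changed by -0.61 and -0.58. Cul4b and Ddb1, of another cullin ligase, changed by -1.0049 and -0.86 and by -0.60 and -0.56. The genes that rose were Cul3 in the Ttf1 KO, by 0.25, and Fbxw7, the receptor for cyclin E, in the Zfp622 KO, by 1.75 (SE 0.32, adjusted p = 0.00083), from 1.54 ± 0.19 to 5.19 ± 2.71 CPM.

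**Figure D4:**
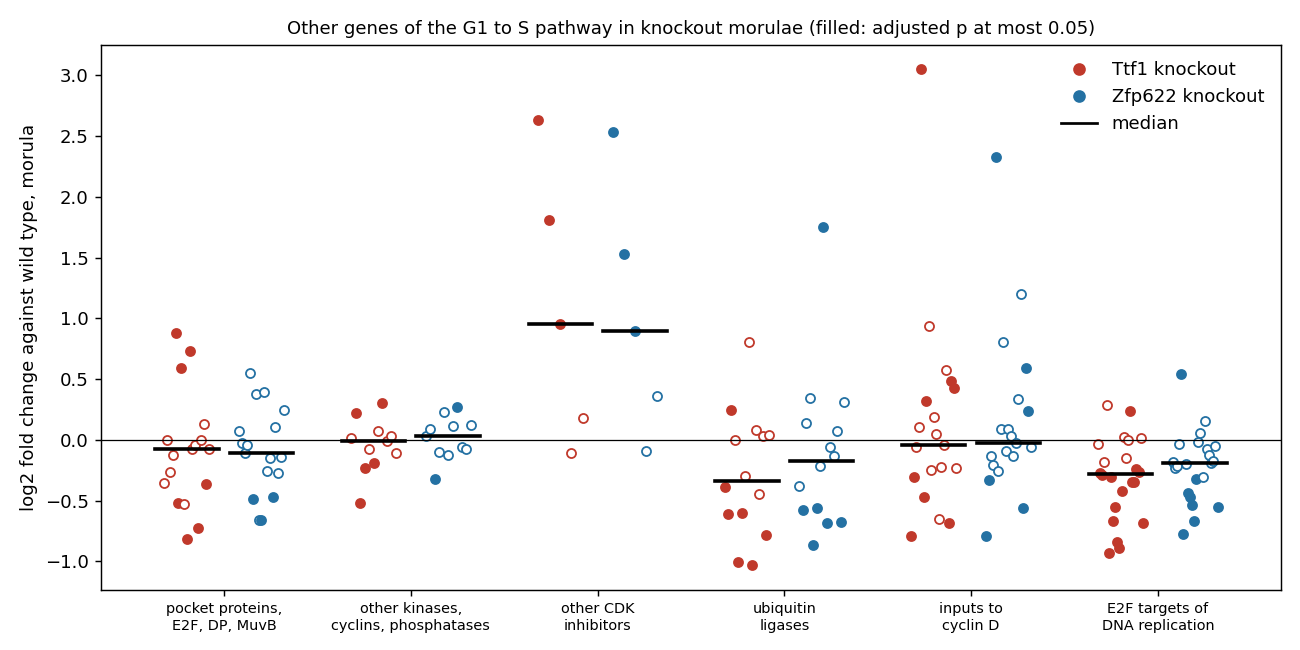
Log2 fold change against wild-type morulae (y axis) of the other genes of the pathway, by list (x axis), in Ttf1 knockout (red) and Zfp622 knockout (blue) morulae; each point is a gene, filled where the adjusted p is at most 0.05, and the short horizontal line is the median. The median of the 22 E2F targets lies at -0.28 and -0.19, and that of the 5 other CDK inhibitors at 0.95 and 0.90.

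In the remaining lists calls went both ways in the Ttf1 KO. In the Zfp622 KO they did so too, except among pocket protein, E2F and DP genes, where none rose. Over all genes 39.2% and 29.1% were called, so the numbers called in these lists are near the background or under it. Of 17 pocket protein, E2F and DP genes 3 rose and 4 fell in the Ttf1 KO and 3 fell in the Zfp622 KO; Lin37 and Mybl2, which serve the complexes that switch cell cycle genes, changed by -0.82 and -0.72 in the Ttf1 KO and by -0.66 and -0.47 in the Zfp622 KO, and E2f5 was higher by 0.88 in the Ttf1 KO. Of 11 other kinase, cyclin and phosphatase genes 2 rose and 3 fell in the Ttf1 KO, and 1 rose (Cks2, 0.27) and 1 fell (Cdc25a, -0.32) in the Zfp622 KO. Cdk2, the partner of cyclin E, had log2 changes of -0.07 (adjusted p = 0.63) and 0.23 (adjusted p = 0.14). Of 19 inputs to cyclin D 4 rose and 4 fell in the Ttf1 KO and 3 rose and 3 fell in the Zfp622 KO. Fos, an immediate early transcription factor, went from 1.21 ± 0.64 CPM in wild-type morulae to 9.87 ± 0.74 and 5.96 ± 2.26 (SD, n = 4; log2 change 3.05 and 2.33), and the kinase gene Akt1 changed by -0.79 and -0.79. Myc was not called (-0.23, adjusted p = 0.48, and -0.03, adjusted p = 0.94).

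The genes whose levels followed each called member most closely over the 24 libraries were found by Pearson's r of log2(CPM + 2), as a description: the points share the stage and the knockouts, which set most of r. For Rb1 they were Arap2 (0.995) and Caprin2 (0.991), for Cdk4 Lamp1 (0.998) and Bhmt (0.997), and for Ccnd3 Plin3 (0.988) and Lin37 (0.986). Cdkn1c was followed by Cplane1 (0.968) and Ei24 (0.963), and Ccne1 by Nop2 (0.958) and Tacc3 (0.952). The cyclins that were higher in knockout morulae had looser companions: Ccnd2 with Nat8f7 (0.874) and Nfyb (0.874), Ccnd1 with Slc7a2 (0.823) and Ptprv (0.780), and Ccne2 with Gfra3 (0.818) and Hspa1b (0.787).

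In the annotation of GRCm38 the members lie on 7 chromosomes. Ccnd1 (chr7:144929931-144939925), Ccne1 (chr7:38097984-38107534) and Cdkn1c (chr7:143458339-143461050) share chromosome 7, all on the minus strand, and Ccnd2 (chr6:127125162-127152193) and Cdkn1b (chr6:134920401-134925513) share chromosome 6. Ccnd3 is at chr17:47505051-47599691, Ccne2 at chr4:11191351-11204779, Cdk4 at chr10:127063534-127067920, Cdk6 at chr5:3341485-3531008 and Rb1 at chr14:73183673-73325822. Counts are summed over all annotated exons of a gene, UTRs included, so isoforms of a gene were not told apart.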

How the data were processed

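Counts of read pairs per gene, 1 table per library, are the authors' deposited values. Per the labels, reads came from oligo-dT primed, template-switched libraries; per the submitters' processing notes, HISAT2 2.2.1 and featureCounts 2.0.1 were used, and per the file headers genes were those of Ensembl 99 on GRCm38, by exon, without strand (the labels also name mm10). Groups were taken from sample titles; genotype and strain labels that count upward were not used. Symbols matched 55144 of 55471 identifiers.

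Genes were filtered (filterByExpr, edgeR 4.0.16, R 4.3.3), scaled by TMM and tested with robust quasi-likelihood fits and Benjamini-Hochberg adjustment over all genes, with 0.05 as threshold: 12 libraries of a stage for knockouts, all 24 for stages and interactions. Levels are CPM with TMM over 24 libraries, errors SD; FPKM was computed from CPM and exon length. SE is the fold change divided by the root of the F statistic. P-values measure the spread between pools of embryos. The procedure was tested on simulated data. Members, lists and tests were chosen with earlier results of these data known. Named list genes are up to 4 per direction with the smallest p (3 between stages), and any others were chosen after their values were seen. A result for 1 list gene is not reported here. Alternatives were DESeq2 1.42.0, other scalings, filters and library sets, a replicate block and a fold threshold.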

Additional observations from a re-analysis of the deposited data

Results flagged for a closer look

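In 4 of 60 sets of 4 libraries (10 genes in 6 groups), 1 library lay farther from the rest than Dixon's 95% critical value for 4 samples allows; chance gives about 1 in 20. They are Ccnd1 in Ttf1 KO L2C library 2 (4.32 CPM, below the others), Ccnd2 in wild-type L2C library 3 (1.64 CPM, above), Ccne2 in wild-type morula library 1 (57.6 CPM, above) and Rb1 in Zfp622 KO morula library 4 (11.7 CPM, above).

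The knockout effect differed between L2C and morula by the interaction test in 11 cases. In the Ttf1 KO these were Ccnd2 (2.59), Ccnd3 (-1.16), Ccne1 (-0.96), Ccne2 (0.64), Cdkn1c (1.34) and Rb1 (3.49), on the log2 scale. In the Zfp622 KO they were Ccnd1 (1.58), Ccne1 (-0.70), Ccne2 (1.07), Cdkn1c (1.65) and Rb1 (3.30).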

How the results depend on the processing

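No called direction reversed in any alternative run. The number of members called in Ttf1 KO morulae, 8, became 4 with an added log2 fold change of at least 1, where 1814 of 14865 genes were called. It became 5 without the wild-type libraries carrying a second index number, where 3553 of 15860 genes were called. Without those libraries the interactions gave 2 (Ttf1 KO) and 3 (Zfp622 KO), where 2132 and 646 of 19953 genes were called. Between knockout morulae, 0 became 2 with no filter on low counts and 1 with DESeq2. Leaving out 1 library gave 6 to 8 calls in Ttf1 KO and 6 to 8 in Zfp622 KO morulae, 0 to 1 between them, 6 to 7 between wild-type stages, 5 to 7 and 4 to 5 in the interactions of Ttf1 KO and Zfp622 KO, and 0 in each L2C comparison. The cause was not tested, apart from the fold threshold and the smaller number of libraries, which limit calls by construction. Over 39 gene results with a call in some setting, 724 alternatives kept the call or its absence, 39 lost and 20 gained it. Without wild-type morula library 1, Ttf1 KO morula library 4 or Ttf1 KO L2C library 4 the Ttf1 interaction of Cdkn1c was lost (adjusted p 0.066, 0.059 and 0.052), and without Zfp622 KO morula library 4 the Zfp622 one (0.062). The Ttf1 interaction of Ccne2 was lost without wild-type morula library 2, 3 or 4 (0.054, 0.053, 0.053) or Ttf1 KO morula library 2 (0.085).

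Calls over all genes ranged, over the alternatives without a fold threshold, from 60 to 769 (258 in the fit reported) in the Ttf1 KO and 2 to 88 (3) in the Zfp622 KO at L2C, 3553 to 6283 (5833) and 2043 to 4648 (4321) in their morulae, 1 to 84 (6) and 2 to 368 (34) between knockouts at L2C and morula, and 2132 to 4606 (3992) and 646 to 2689 (2010) in the interactions. With total counts as scale, 59.5% of the Ttf1 KO calls at L2C were higher, against 48.1%. Between the knockouts the share of higher calls went from 50% to 75% at L2C and from 55.9% to 40.7% at morula, of few genes.

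Replicate numbers did not pair the libraries: deviations of same-numbered libraries correlated at -0.297 to 0.173 over 24 pairs. A fit with the replicate number as a block gave 8 members in Ttf1 KO and 6 in Zfp622 KO morulae, 7 between stages, 6 and 5 in the interactions and 0 in the rest, as without it. In wild-type morulae Ccnd2, Cdkn1b, Cdkn1c and Rb1 had at most 20 counts a library, which limits the precision of their fold changes.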
